A study of Mus musculus with 4 samples.

Results

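Neural tubes of mouse embryos were sequenced as 4 pools, and each pool carries a genotype label and a replicate number. The comparison described here sets the 2 pools numbered 2 against the 2 pools numbered 1, with the genotype label as a covariate, and asks which genes of tissue, maturation and axial level separate the numbers under both labels. The number in the sample title chose the members, and all 4 of the 4 libraries entered, 2 a side. Every embryo was at E12.5 on a C57BL/6 background. Each side holds a pool labelled WT and a pool labelled Lbx1Δ/Δ, the homozygous deletion of the homeodomain factor Lbx1, for which the deleted part is not given in the sources used here. Per the labels' protocols, a pool joined tubes that shared a litter and a genotype. The labels give neither the number of embryos in a pool nor the limits of the dissected tissue, and they do not state that pools of the same number came from the same litter. The number may therefore stand for a litter, a dissection or a day, and these cannot be told apart. P-values speak of the spread among these pools only. With 1 library for each number under each label, whether a difference between numbers depends on genotype could not be tested.

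At this stage the neural tube changes quickly. Progenitors next to the ventricle divide, leave the cell cycle and become neurons, neurons then build axons and synapses, and progenitors turn from making neurons to making glia. Blood in the embryo is at the same time passing from primitive red cells with embryonic globins to red cells from the liver. Hox genes are expressed in nested domains along the axis, with the high-numbered paralogue groups towards the tail, and muscle, skeletal precursors, skin and ganglia lie next to the tube.

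The libraries held 16853984 to 20579803 counts, assigned to 24971 genes, of which 10757 passed the filter on low counts. Levels are counts scaled to a common library total (CPM) after TMM scaling, which corrects the totals for composition. Where a library had 0 counts of a gene, a level of 3 counts, or 0.146 to 0.178 CPM, could have been missed by counting error alone. Values are given for the number 1 pools and then, after "against", for the number 2 pools. On each side the WT pool comes first and the pool labelled Lbx1Δ/Δ second. A difference is log2 of number 2 over number 1, so a positive value means a higher level in the number 2 pools. Lbx1 itself had 819 and 1946 against 1379 and 6520 counts. The Lbx1 difference passed the test (log2 difference 1.41, SE 0.12, edgeR adjusted p = 5.21e-07). It was 1.02 in the WT pair and 1.75 in the pair labelled Lbx1Δ/Δ. Without the number 2 pool labelled Lbx1Δ/Δ the fitted Lbx1 difference was 0.10, with number as the only term. That fit sets the number 2 WT pool against number 1 pools of both labels, so it mixes number with genotype. Under both numbers the Lbx1 count was higher in the pool labelled Lbx1Δ/Δ, which goes against that label unless the counted part lies outside the deletion. A gene under 10 counts in the pools of 1 number passed the filter through the other number alone and was bound to lean that way, so for low-count genes the calls are a description. All 4 pools expressed the neural progenitor gene Sox2 (257 to 298 CPM) and the neuronal tubulin Tubb3 (1780.3 to 3695 CPM).

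The numbers separated the pools at 3833 of the 10757 genes tested, which is 35.6% (edgeR's quasi-likelihood test, Benjamini-Hochberg adjusted p under 0.05). Of these, 1914 were higher in the number 2 pools (17.8% of genes tested) and 1919 were lower (17.8%). The fold was above 2 for 631 of the higher and 404 of the lower genes. Over all genes tested, 4208 were higher and 4205 lower in number 2 in both the WT pair and the pair labelled Lbx1Δ/Δ. The called genes all had the same direction in both pairs, which the call itself nearly requires. Genes for which the number 2 pools were both above both number 1 pools made up 32.9% of those tested. Genes for which they were both below made up 33.0%. A call makes such separation likely, so where it is stated for called genes below it is description and no further support. The genotype label alone, with the numbers left in the spread, separated 0 genes in edgeR's test, with 55 genes at an unadjusted p under 0.05. With the number as replicate block, the fit that matches the one above, the genotype label separated 92 genes (0.855%). The first principal component of log2 CPM held 68.4% of the variance and placed the number 1 pools at -42.1 and -32.9 and the number 2 pools at 23.7 and 51.3. Across the genes tested, which are not independent replicates, the difference in the WT pair and the difference in the pair labelled Lbx1Δ/Δ had a Pearson r of 0.623 and a Spearman rho of 0.688.

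The number of calls rests on having both number 1 pools. Direction was kept at 3829 of 3831 called genes without the number 1 WT pool. It was kept at 3833 of 3833 without the number 1 pool labelled Lbx1Δ/Δ. Those fits share most pools with the full fit, so the kept directions are no separate support. Without the number 1 WT pool, 1 gene was higher and 0 were lower, and without the number 1 pool labelled Lbx1Δ/Δ, 2 were higher and 4 lower (edgeR, number as the only term). Unadjusted p was under 0.05 for 2395 and 2776 genes in these fits. Without a number 2 pool the calls were 1878 higher and 2039 lower (WT left out) or 1295 higher and 1092 lower (Lbx1Δ/Δ left out). In each such fit the lone pool of a number was taken to vary like the other number's pools. The 2 number 1 pools differed from each other by a median of 0.16 on the log2 scale over the tested genes, and the 2 number 2 pools by 0.22.

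The pairs also differed in the size of the difference, which was not tested. Among called genes the median absolute log2 difference was 0.59 in the WT pair and 0.72 in the pair labelled Lbx1Δ/Δ. Of the called genes, 70.0% were farther apart in the pair labelled Lbx1Δ/Δ, and this share was 76.6% of the genes that were lower and 63.5% of those that were higher in number 2. Highly expressed genes were called more often, from 11.9% of the lowest-expressed 20% of genes to 51.9% of the highest-expressed 20%.

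**Figure D1:**
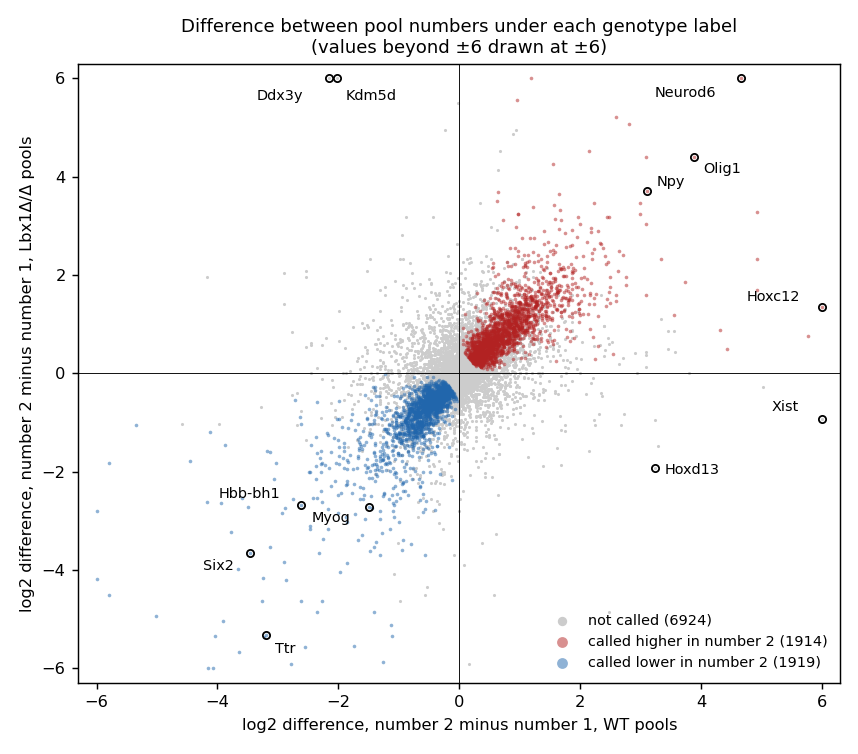
Each point is a gene, with the log2 difference of number 2 minus number 1 in the WT pools on the horizontal axis and in the pools labelled Lbx1Δ/Δ on the vertical axis. Called genes (1914 higher in red, 1919 lower in blue) lie in the quadrants where both pairs share a sign, and the Y-linked Ddx3y and Kdm5d, Xist and Hoxd13 lie where they do not.

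Genes of cell division were lower in the number 2 pools. In pools of tissue, fewer cells of a type and less RNA per cell cannot be told apart. Of 12 listed mitosis genes 11 were tested, and all 11 were called lower, with a median difference of -0.84. Of 14 listed DNA replication genes 10 were tested and 9 were called lower, with a median of -0.86, against a median of 0.00 over all genes tested. The share called lower among all genes tested was 17.8%. Cdk1, the kinase that drives entry into mitosis, was at 228 and 211 against 137 and 110.2 CPM (log2 difference -0.84, SE 0.09, edgeR adjusted p = 2.06e-06). Ccna2, the cyclin of S phase and early mitosis, was at 333 and 341 against 200.3 and 167 CPM (log2 difference -0.88, SE 0.09, edgeR adjusted p = 3.59e-06). Both genes were lower in each number 2 pool than in either number 1 pool. Mcm4, a subunit of the replicative helicase, was at 398 and 393 against 219.8 and 182 CPM (log2 difference -0.98, SE 0.09, edgeR adjusted p = 1.20e-06). Rrm2, the ribonucleotide reductase subunit that limits nucleotide supply, was at 497 and 553 against 299.9 and 229 CPM (log2 difference -0.999, SE 0.12, edgeR adjusted p = 7.45e-06). The proliferation marker Mki67 was at 819 and 920.0 against 577 and 418 CPM (log2 difference -0.82, SE 0.13, edgeR adjusted p = 1.16e-04). At these 5 genes the number 2 pool labelled Lbx1Δ/Δ was the lowest of the 4. Mcm7, which may be counted in part, was the tested replication gene that was not called (log2 difference 0.14). The G1 cyclins were lower as well, with Ccnd2 at 936 and 912 against 482 and 351 CPM (log2 difference -1.17, SE 0.11, edgeR adjusted p = 1.29e-06) and Ccnd1 at 516 and 523 against 395 and 363 CPM (log2 difference -0.46, SE 0.10, edgeR adjusted p = 0.00154).

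Many of these genes carry a short motif upstream, which is why the stretches of Cdk1 and of the mitotic cyclin Ccnb1 (374 and 392 against 244 and 196 CPM) are shown. Each is the 250 bases before the transcription start, 5′ to 3′ on the gene's strand, from RefSeq on GRCm38.p6, a build other than that of the counts. Capitals mark the CCAAT box (CCAAT on either strand, so it can read as ATTGG) and the cell cycle homology element (TTTGAA on either strand).
Cdk1: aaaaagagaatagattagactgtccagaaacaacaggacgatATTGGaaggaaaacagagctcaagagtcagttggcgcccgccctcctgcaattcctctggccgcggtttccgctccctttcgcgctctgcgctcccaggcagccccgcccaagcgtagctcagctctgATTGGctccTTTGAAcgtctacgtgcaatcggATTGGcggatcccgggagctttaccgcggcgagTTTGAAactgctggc
Ccnb1: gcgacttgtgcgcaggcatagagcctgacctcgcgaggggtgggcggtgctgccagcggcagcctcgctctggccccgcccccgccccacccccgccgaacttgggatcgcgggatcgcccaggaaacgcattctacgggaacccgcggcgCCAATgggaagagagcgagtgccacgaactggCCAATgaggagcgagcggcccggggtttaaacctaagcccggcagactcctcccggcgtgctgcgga
The Cdk1 stretch held 3 CCAAT boxes and 2 elements reading TTTGAA, and the Ccnb1 stretch held 2 CCAAT boxes and 0 of the other. Of the 21 tested mitosis and replication genes 16 matched the promoter table, with 17 windows of 250 bases. CCAAT was found in 15 of these windows (88.2%), against 33.8% of all 32851 windows in the table. TTTGAA was found in 5 (29.4%), against 16.0% of all windows. Among 19 windows of 17 matched neuronal cytoskeleton, synapse and inhibitory neuron genes, most of which were called higher in number 2, CCAAT was found in 4 (21.1%). A match says only that these letters stand in the window. The 2 stretches lie at chr10:69352913-69353162, minus strand and chr13:100786487-100786736, minus strand.

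Several RNA-binding proteins that mark early embryonic cells were also lower. Of 9 listed heterochronic factors 7 were tested, 4 were called lower and 0 higher, with a median of -0.73. Lin28a, which blocks let-7 maturation, had 214 and 204 against 98 and 68 counts (log2 difference -1.20, SE 0.24, edgeR adjusted p = 0.00102). Igf2bp1, an mRNA-binding protein of foetal tissue, was at 398 and 417 against 238 and 187 CPM (log2 difference -0.95, SE 0.10, edgeR adjusted p = 4.26e-06). Igf2bp2 (-0.81) and Igf2bp3 (-0.70) were the other two called genes. Lin28b (log2 difference -0.39, edgeR adjusted p = 0.0653), Trim71 (-0.73) and Mycn (-0.10) did not pass the test. Neural progenitor genes did not move together: of 10 tested of 12 listed, 3 were higher, 2 were lower and the median was 0.15. These counts lie near the 17.8% called in each direction among all genes tested. Notch1, the receptor that holds progenitors back from differentiating, was at 228 and 317 against 293 and 352 CPM (log2 difference 0.26, SE 0.09, edgeR adjusted p = 0.0385). Msi1, a progenitor RNA-binding protein, was at 236 and 314 against 328 and 394 CPM (log2 difference 0.40, SE 0.09, edgeR adjusted p = 0.00278). Sox3 was lower at 37.0 and 48.8 against 28.5 and 28.0 CPM (log2 difference -0.59, SE 0.15, edgeR adjusted p = 0.0061), as was the Notch target Hes1 (log2 difference -0.50, SE 0.16, edgeR adjusted p = 0.0278). Sox2 (0.18), Nes (-0.14) and Vim (-0.03) did not pass the test.

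Genes of differentiated neurons were higher in the number 2 pools. All 11 tested of 15 listed neuronal cytoskeleton and growth cone genes were called higher (median 0.96). For synapse and excitability genes, 7 of 8 tested of 19 listed were called higher (median 1.36), against 17.8% of all genes tested. Map2, a dendritic microtubule protein, was at 101 and 159.8 against 308 and 396 CPM (log2 difference 1.46, SE 0.10, edgeR adjusted p = 3.69e-08). Ina, the neurofilament-related alpha-internexin, was at 1153 and 1276 against 2403 and 2522 CPM (log2 difference 1.02, SE 0.10, edgeR adjusted p = 1.41e-06). The growth cone protein Gap43 was at 459.6 and 506 against 906 and 974 CPM (log2 difference 0.96, SE 0.10, edgeR adjusted p = 2.32e-06). No number 2 pool overlapped a number 1 pool at these 3 genes. Syt4, a synaptotagmin, was at 102 and 104 against 289 and 273 CPM (log2 difference 1.44, SE 0.09, edgeR adjusted p = 1.31e-08), and the synaptic vesicle protein Sv2a had 1849 and 1628 against 3684 and 4347 counts (log2 difference 1.34, SE 0.08, edgeR adjusted p = 2.39e-08). Syp, synaptophysin, was at 113 and 117 against 233 and 289 CPM (log2 difference 1.17, SE 0.09, edgeR adjusted p = 1.39e-07). Differences were below 1 for Tubb3, at 1780.3 and 2034 against 3056 and 3695 CPM (log2 difference 0.82, SE 0.10, edgeR adjusted p = 1.03e-05), and for Nefm, at 1038 and 936 against 1361 and 1472 CPM (log2 difference 0.52, SE 0.11, edgeR adjusted p = 0.00105). Of the proneural and newborn neuron genes 6 of 10 tested (12 listed) were higher and 1 lower, with a median of 0.26. Neurog2 (0.04) and Neurog1 (-0.24) did not pass the test, while Atoh1, which specifies the most dorsal neurons, was lower with 204 and 268 against 108 and 100 counts (log2 difference -1.03, SE 0.23, edgeR adjusted p = 0.00216).

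Genes of both transmitter classes were among those higher in number 2. Of 9 tested of 10 listed inhibitory neuron genes 8 were called higher and 0 lower (median 1.38), and of 7 tested of 10 listed excitatory neuron genes 5 were called higher (median 1.13). Gad2, which makes GABA, was at 47.0 and 37.1 against 119.7 and 115 CPM (log2 difference 1.49, SE 0.10, edgeR adjusted p = 7.13e-08), and the vesicular transporter Slc32a1 was at 31.8 and 29.8 against 77.5 and 82.8 CPM (log2 difference 1.38, SE 0.13, edgeR adjusted p = 7.33e-07). Pax8, a factor of dorsal inhibitory neurons, was at 43.4 and 39.3 against 103 and 102 CPM (log2 difference 1.31, SE 0.11, edgeR adjusted p = 1.97e-07). Pax2 was at 90.5 and 87.9 against 179 and 207 CPM (log2 difference 1.11, SE 0.09, edgeR adjusted p = 1.67e-07). Gbx1, a dorsal horn factor, had 77 and 66 against 250 and 223 counts (log2 difference 1.87, SE 0.22, edgeR adjusted p = 8.63e-06). Among excitatory genes, Lmx1b had 141 and 144 against 364 and 452 counts (log2 difference 1.65, SE 0.17, edgeR adjusted p = 2.72e-06). Tlx3 had 478 and 476 against 734 and 1055 counts (log2 difference 1.02, SE 0.14, edgeR adjusted p = 4.54e-05). Slc17a6, the glutamate transporter, had 137 and 169 against 306 and 397 counts (log2 difference 1.33, SE 0.18, edgeR adjusted p = 2.72e-05). At each of these genes both number 2 pools were above both number 1 pools. Of the motor neuron genes 4 of 9 tested (10 listed) were higher and 1 lower, with a median of 0.54. For these lists too, 17.8% of all genes tested were called in each direction. Slc5a7, the choline transporter, had 371 and 355 against 704 and 631 counts (log2 difference 1.02, SE 0.15, edgeR adjusted p = 8.78e-05), whereas Chat had 107 and 83 against 115 and 161 counts and did not pass (log2 difference 0.67, SE 0.25, edgeR adjusted p = 0.0514). Marker lists of tissues around the tube were summed in the same pools. The sums were 1018 and 874 against 487 and 152 CPM for skeletal muscle, 7125 and 5103 against 5334 and 4588 CPM for mesenchyme and cartilage, and 380 and 309.7 against 122 and 139 CPM for erythroid genes. Muscle and erythroid sums did not overlap between numbers, whereas mesenchyme sums did. Endothelial genes summed to 571 and 522 against 529 and 538 CPM. Sensory ganglion genes, which mark neurons beside the tube, summed to 297 and 252 against 407 and 487 CPM and were higher in both number 2 pools. The part of these tissues in the neuronal values was not tested.

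Large positive differences included further genes of postmitotic neurons. Neurod6 had 68 and 12 against 1436 and 1810 counts (log2 difference 5.54, SE 0.33, edgeR adjusted p = 1.31e-08). Neurod2 was at 5.19 and 7.06 against 41.2 and 67.2 CPM (log2 difference 3.12, SE 0.17, edgeR adjusted p = 5.78e-09). Both encode helix-loop-helix factors of late-born neurons, and Neurod6 had the largest positive difference among called genes. The neuropeptide Npy was at 8.48 and 4.43 against 73.3 and 58.2 CPM (log2 difference 3.38, SE 0.18, edgeR adjusted p = 5.78e-09), while Sst was at 30.1 and 35.6 against 60.2 and 57.4 CPM (log2 difference 0.85, SE 0.14, edgeR adjusted p = 1.78e-04). Of 6 tested of 13 listed neuropeptide genes, Npy and Sst were called higher and 0 lower (median 0.75). With 17.8% of all genes tested called higher, these calls say little about the list. Other genes with large differences were the adhesion protein gene Dscaml1 (log2 difference 2.55, SE 0.19, edgeR adjusted p = 1.32e-07), the glutamate transporter Slc1a1 (log2 difference 2.11, SE 0.16, edgeR adjusted p = 1.39e-07), the potassium channel partner Dpp10 (log2 difference 1.98, SE 0.16, edgeR adjusted p = 2.01e-07) and the junctophilin Jph4 (log2 difference 1.84, SE 0.09, edgeR adjusted p = 5.78e-09). Tmem130 (1.86) and 4922502B01Rik (2.01) were also among the 12 largest positive differences of called genes with average log2 CPM above 4. Temporal transcription factors of neurons, a list written after values were seen, had 6 of 12 tested (15 listed) higher, 0 lower and a median of 0.57. In that list Zfhx2 was at 130.1 and 167 against 227 and 271 CPM (log2 difference 0.75, SE 0.08, edgeR adjusted p = 5.38e-06). Onecut1 had 53 and 115 against 134 and 136 counts (log2 difference 0.89, SE 0.31, edgeR adjusted p = 0.0336), while Onecut2 (0.18), Zfhx3 (-0.07) and Zfhx4 (-0.30) did not pass.

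**Figure D2:**
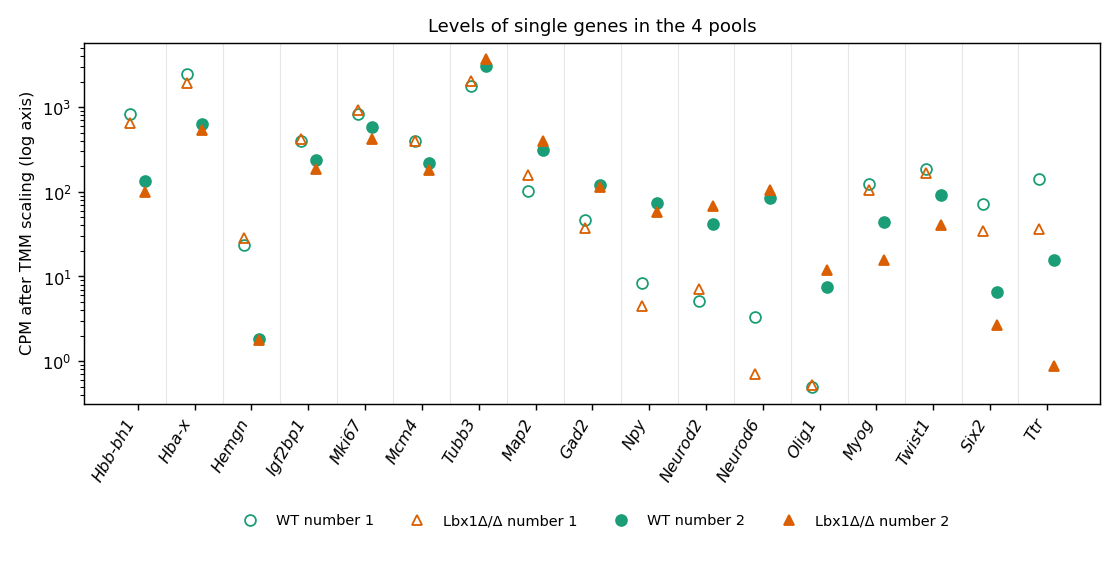
Levels of 17 genes in each pool as CPM after TMM scaling on a log axis, with number 1 pools open on the left and number 2 pools filled on the right of each gene, WT as circles and Lbx1Δ/Δ as triangles. The globins, Hemgn, Igf2bp1, Mki67, Mcm4, Myog, Twist1, Six2 and Ttr are lower in both number 2 pools, and the neuronal genes and Olig1 are higher in both.

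Most called glial genes were higher, some from a few counts in the number 1 pools. Of 11 tested of 17 listed gliogenic and radial glia genes 6 were called higher and 2 lower (median 0.81), against 17.8% in each direction among all genes tested. Olig1, a factor of the oligodendrocyte lineage, had 10 and 9 against 128 and 201 counts (log2 difference 4.20, SE 0.35, edgeR adjusted p = 3.35e-07). Olig2, which also marks motor neuron progenitors, had 72 and 75 against 113 and 134 counts (log2 difference 0.88, SE 0.26, edgeR adjusted p = 0.0163). Ptprz1, a radial glia and oligodendrocyte precursor phosphatase, had 294 and 184 against 781 and 632 counts (log2 difference 1.73, SE 0.15, edgeR adjusted p = 5.08e-07). Slc1a3, the radial glia glutamate transporter GLAST, was at 153 and 157 against 273 and 269 CPM (log2 difference 0.81, SE 0.08, edgeR adjusted p = 2.64e-06). Fabp7 was at 663 and 785 against 1212 and 1257 CPM (log2 difference 0.78, SE 0.10, edgeR adjusted p = 2.55e-05). Sox9, which is needed for gliogenesis and is also a cartilage gene, was lower at 322 and 308 against 230.4 and 203 CPM (log2 difference -0.54, SE 0.09, edgeR adjusted p = 1.67e-04). Tnc, the matrix protein tenascin C, was the other lower gene, at 217 and 143 against 82.5 and 53.7 CPM (log2 difference -1.41, SE 0.08, edgeR adjusted p = 1.61e-08). Astroglial transport and membrane genes, another list written after values were seen, had 8 of 9 tested (12 listed) higher, 1 lower and a median of 1.39. This split may follow from the choice of members. The higher genes include Slc1a1, named above beside genes of postmitotic neurons, so its call here is not separate from that one. Hepacam, an astrocyte adhesion protein, had 6 and 1 against 37 and 50 counts (log2 difference 3.75, SE 0.64, edgeR adjusted p = 2.63e-04). Both Hepacam and Olig1 had at most 10 counts in each number 1 pool. Slc6a11, the glial GABA transporter, had 187 and 175 against 641 and 914 counts (log2 difference 2.22, SE 0.16, edgeR adjusted p = 9.26e-08). The gap junction gene Gja1, also expressed outside the nervous system, was the lower gene (log2 difference -0.38, SE 0.10, edgeR adjusted p = 0.00628).

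Red cell genes separated the numbers in the other direction. Of the 5 listed embryonic globin genes 3 were tested and all 3 were called lower in number 2 (median -1.92). Hbb-bh1, the earliest beta-like globin, was at 827 and 643 against 135 and 100.5 CPM (log2 difference -2.64, SE 0.10, edgeR adjusted p = 2.28e-10). Hba-x, the embryonic zeta globin, was at 2480.1 and 1941 against 627 and 537 CPM (log2 difference -1.92, SE 0.10, edgeR adjusted p = 5.78e-09). Hbb-y, the epsilon-like globin, was at 4862 and 3247 against 1995 and 1880.4 CPM (log2 difference -1.04, SE 0.12, edgeR adjusted p = 5.91e-06). The 3 globins did not overlap between numbers, and the difference was largest for Hbb-bh1. The adult globins are near-identical copies and had 0 counts in every library, so a ratio of embryonic to adult globin could not be formed. Other erythroid genes were lower too: 8 of 9 tested (12 listed) were called lower and 0 higher (median -1.60), against 17.8% lower among all genes tested. The number 2 pools were below the number 1 pools at each of the 8. Hemgn, a nuclear factor of red cell precursors, had 482 and 484 against 31 and 30 counts (log2 difference -3.84, SE 0.22, edgeR adjusted p = 9.15e-09). The difference was largest for Hemgn among the tested genes of the list. Klf1, the activator of erythroid genes, had 135 and 102 against 33 and 21 counts (log2 difference -1.995, SE 0.33, edgeR adjusted p = 1.89e-04). Slc4a1, the red cell anion exchanger, was at 220.1 and 170.2 against 66.6 and 76.8 CPM (log2 difference -1.44, SE 0.11, edgeR adjusted p = 1.50e-07), and Sptb, which neurons also express, was the tested gene that did not pass (-0.31).

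The upstream stretches of Hba-x and Hbb-y are shown for elements known to act in globin promoters. Capitals mark the CACCC box, which erythroid Krüppel-like factors bind, the TATA box (TATAAA) and, as above, CCAAT, each on either strand.
Hba-x: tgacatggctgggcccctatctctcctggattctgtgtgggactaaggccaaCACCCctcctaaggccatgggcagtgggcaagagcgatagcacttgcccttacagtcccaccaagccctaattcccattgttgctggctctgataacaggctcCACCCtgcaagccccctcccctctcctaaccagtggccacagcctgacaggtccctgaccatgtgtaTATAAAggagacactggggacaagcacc
Hbb-y: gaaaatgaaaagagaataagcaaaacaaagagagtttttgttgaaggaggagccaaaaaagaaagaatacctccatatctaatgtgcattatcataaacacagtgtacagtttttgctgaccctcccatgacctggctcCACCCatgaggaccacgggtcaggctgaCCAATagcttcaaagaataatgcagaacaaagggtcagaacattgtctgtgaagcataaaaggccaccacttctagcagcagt
The Hba-x stretch (chr11:32276350-32276599, plus strand) held 2 CACCC boxes and 1 TATA box, and the Hbb-y stretch (chr7:103853208-103853457, minus strand) held 1 CACCC box and 1 CCAAT box. CACCC was found in 6 of the 8 windows (75.0%) of the 8 globin and erythroid genes that matched, of 12 tested, and in 52.0% of all windows.

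Skeletal muscle genes were lower in number 2 under both labels, where 17.8% of all genes tested were called lower. Of 13 tested of 17 listed 11 were called lower and 0 higher (median -1.64), with a median of -0.93 in the WT pair and -2.47 in the pair labelled Lbx1Δ/Δ. Myog, a factor of muscle differentiation, was at 122 and 105 against 43.7 and 15.8 CPM (log2 difference -2.07, SE 0.19, edgeR adjusted p = 9.49e-07). Myod1, which commits cells to muscle, was at 57.6 and 45.0 against 17.4 and 6.14 CPM (log2 difference -2.25, SE 0.21, edgeR adjusted p = 1.01e-06). Des, desmin, was at 56.3 and 48.3 against 26.7 and 7.55 CPM (log2 difference -1.81, SE 0.25, edgeR adjusted p = 4.50e-05). Actc1, the sarcomeric actin of embryonic muscle, was at 348 and 303 against 168 and 49.7 CPM (log2 difference -1.80, SE 0.22, edgeR adjusted p = 1.30e-05). At all 4 genes the number 2 pool labelled Lbx1Δ/Δ was the lowest. Without the number 2 pool labelled Lbx1Δ/Δ the list's median was -0.81. Lbx1 also acts in migrating muscle precursors, and whether genotype bears on the number 2 values could not be tested.

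The Myog stretch is shown with its E-boxes, the sequence CANNTG (N is any base) that myogenic and proneural helix-loop-helix factors bind, in capitals.
Myog: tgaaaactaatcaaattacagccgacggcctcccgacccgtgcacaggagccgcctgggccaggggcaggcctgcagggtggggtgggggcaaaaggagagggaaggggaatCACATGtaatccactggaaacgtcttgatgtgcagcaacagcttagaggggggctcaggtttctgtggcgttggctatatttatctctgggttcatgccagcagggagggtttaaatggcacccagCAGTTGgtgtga
It held 2 E-boxes (chr1:134289754-134290003, plus strand), and E-boxes were found in 9 of 11 windows (81.8%) of matched muscle genes against 66.2% of all windows.

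Genes of other tissues around the tube were also among those lower in number 2. Of 14 tested of 16 listed mesenchyme and cartilage genes 7 were called lower and 0 higher (median -0.41), against 17.8% lower among all genes tested. Twist1, a mesenchymal factor, was at 187 and 165 against 90.8 and 40.5 CPM (log2 difference -1.52, SE 0.15, edgeR adjusted p = 1.89e-06). Foxc1, of the meninges list, was at 152 and 114 against 87.3 and 54.9 CPM (log2 difference -0.93, SE 0.09, edgeR adjusted p = 1.93e-06). That list was split, with 3 lower and 2 higher of 7 tested and a median of 0.06. Its higher genes were Slc6a13 (1.66) and Ptgds (2.65, from 4 and 2 counts in number 1). Lum, a matrix proteoglycan, was at 240.0 and 159.9 against 129 and 106 CPM (log2 difference -0.74, SE 0.09, edgeR adjusted p = 9.17e-06). Fibrillar collagens were not all called, with Col1a1 at 1404 and 1029 against 1295 and 1102 CPM (log2 difference -0.01, SE 0.10, edgeR adjusted p = 0.959) and Col3a1 at -0.25 among those that did not pass. Single factors of the somites and their derivatives, taken from no common list, were called lower. Meox1 was at 57.2 and 60.7 against 21.1 and 9.07 CPM (log2 difference -2.05, SE 0.22, edgeR adjusted p = 4.06e-06). Pax1, of the sclerotome, was at 122 and 132 against 91.1 and 54.9 CPM (log2 difference -0.83, SE 0.14, edgeR adjusted p = 2.28e-04). Dmrt2, of the dermomyotome, had 690 and 501 against 145 and 30 counts (log2 difference -2.80, SE 0.31, edgeR adjusted p = 4.50e-06). Of 9 tested of 12 listed surface ectoderm and epithelium genes 7 were called lower (median -0.97). Krt18 had 329 and 183 against 75 and 38 counts (log2 difference -2.04, SE 0.23, edgeR adjusted p = 6.44e-06). Epcam had 499 and 295 against 181 and 103 counts (log2 difference -1.34, SE 0.18, edgeR adjusted p = 2.99e-05), while the skin keratin Krt5 was at 56.2 and 34.8 against 44.0 and 29.4 CPM and did not pass (log2 difference -0.30, SE 0.14, edgeR adjusted p = 0.104).

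Limb and body wall genes had a median difference of -2.62, and 6 of 7 tested of 8 listed were called lower. Six2, of head, limb and kidney mesenchyme and outside that list, had 1475 and 592 against 110 and 46 counts (log2 difference -3.56, SE 0.17, edgeR adjusted p = 3.26e-09). Alx4, of limb and face mesenchyme, had 1562 and 826 against 288 and 91 counts (log2 difference -2.61, SE 0.20, edgeR adjusted p = 1.39e-07). Pitx1, of the hindlimb and jaw, had 275 and 158 against 13 and 0 counts (log2 difference -4.96, SE 0.49, edgeR adjusted p = 1.42e-06). Counts in the number 2 pools were a small share of those in number 1 at each. Tbx5, of the forelimb and heart, had 102 and 53 against 5 and 8 counts (log2 difference -3.35, SE 0.49, edgeR adjusted p = 6.10e-05). Of the 6 lower genes Tbx5 was under 10 counts in both number 2 pools, and Pitx1 and Hand2 were in 1 of them. These passed the filter only with number 1 pools, so the count of 6 and the median are in part set by the filter. In urogenital and mesothelium genes, 4 of 5 tested (8 listed) were lower and 1, Pax8, was higher. Pax8 is also a dorsal neuron gene. Wt1, of the mesothelium and kidney, whose reads cannot be told apart from those of its antisense partner, had 436 and 177 against 129 and 14 counts (log2 difference -2.21, SE 0.33, edgeR adjusted p = 7.83e-05). Upk3b, of the mesothelium, had 45 and 16 against 2 and 0 counts (log2 difference -4.62, SE 0.84, edgeR adjusted p = 4.51e-04). Upk3b too passed the filter through number 1 alone. Choroid plexus genes had 2 lower and 1 higher of 5 tested (8 listed), where 17.8% of all genes tested were called in each direction. Ttr, the transthyretin made by choroid plexus and liver, had 2920 and 622 against 263 and 15 counts (log2 difference -3.79, SE 0.28, edgeR adjusted p = 9.56e-08), and its fitted difference ranged from -6.67 to -2.16 when a pool was left out. The WT pool of number 1 was far above the other 3 at Ttr. Kl was the higher gene, with 11 and 0 against 18 and 23 counts (log2 difference 2.20, SE 0.80, edgeR adjusted p = 0.0427). Clic6 had 542 and 139 against 58 and 19 counts (log2 difference -2.92, SE 0.23, edgeR adjusted p = 1.76e-07). Multiciliated cell genes, which the choroid plexus also expresses and which were listed after values were seen, had 5 of 10 tested (15 listed) lower and 0 higher. Each of the 5 had under 10 counts in 1 or both number 2 pools and passed the filter only with number 1 pools. Their shared direction may follow from this filter and from the choice of members. Ccno had 61 and 16 against 4 and 2 counts (log2 difference -3.38, SE 0.64, edgeR adjusted p = 6.59e-04). Deup1 had 73 and 30 against 13 and 4 counts (log2 difference -2.44, SE 0.50, edgeR adjusted p = 0.00111), whereas Foxj1 was not called (0.44). Patterning genes of other structures, also listed after values were seen, were lower at 8 of 8 tested, which may follow from the choice of members. The list includes Dmrt2 and Emx2os, which are described in other paragraphs. Members with under 10 counts in both number 2 pools, such as Tcf21, passed the filter through number 1 alone. In that list Tcf21, of visceral mesoderm, had 96 and 55 against 4 and 0 counts (log2 difference -5.04, SE 0.64, edgeR adjusted p = 1.62e-05). Sim2 had 271 and 159 against 40 and 18 counts (log2 difference -2.76, SE 0.28, edgeR adjusted p = 2.15e-06). Gata6 had 190 and 58 against 28 and 14 counts (log2 difference -2.30, SE 0.35, edgeR adjusted p = 8.23e-05). At each of the genes named in this group that were called lower, both number 2 pools were below both number 1 pools. For Tbx5, Upk3b, Ccno and Tcf21, under 10 counts in both number 2 pools, the filter nearly requires this.

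Not every neighbouring tissue was lower. Among all genes tested, 17.8% were called higher and 17.8% lower, and 1 call in a list of 6 or 8 lies near these shares. Endothelial genes had 1 of 6 tested (11 listed) higher and 0 lower, with a median of -0.06, and Cdh5, VE-cadherin, was at 194 and 175 against 166 and 162 CPM (log2 difference -0.17, SE 0.08, edgeR adjusted p = 0.12). Microglia and macrophage genes had 1 of 8 tested (11 listed) higher, Mrc1 with 221 and 190 against 424 and 314 counts (log2 difference 0.98, SE 0.18, edgeR adjusted p = 4.75e-04), and a median of 0.17. Sensory ganglion genes were mostly higher, with 5 of 8 tested (11 listed) higher, 1 lower and a median of 0.84. Avil had 122 and 57 against 199 and 320 counts (log2 difference 1.69, SE 0.28, edgeR adjusted p = 2.25e-04). P2rx3 was at 79.4 and 57.2 against 108 and 134 CPM (log2 difference 0.83, SE 0.13, edgeR adjusted p = 1.60e-04). Pirt, a sensory neuron channel regulator, had 412 and 165 against 766 and 1112 counts (log2 difference 1.92, SE 0.26, edgeR adjusted p = 2.55e-05). Both number 2 pools were above both number 1 pools at these 3 genes, as at 32.9% of all genes tested. Neural crest and Schwann precursor genes had 1 higher and 1 lower of 6 tested (9 listed), with Sox10 at 87.2 and 98.2 against 86.1 and 101 CPM (log2 difference 0.01, SE 0.09, edgeR adjusted p = 0.929). Meninges genes had 2 higher and 3 lower of 7 tested (7 listed), pericyte and smooth muscle genes had 1 higher and 2 lower of 4 (8 listed), and heart genes had 0 called of 2 (7 listed). Of 4 tested of 11 listed liver secreted protein genes, 2 were higher: Alb had 17 and 54 against 89 and 230 counts (log2 difference 2.32, SE 0.30, edgeR adjusted p = 1.82e-05). Afp had 17 and 16 against 42 and 93 counts (log2 difference 2.07, SE 0.42, edgeR adjusted p = 0.00111).

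**Figure D3:**
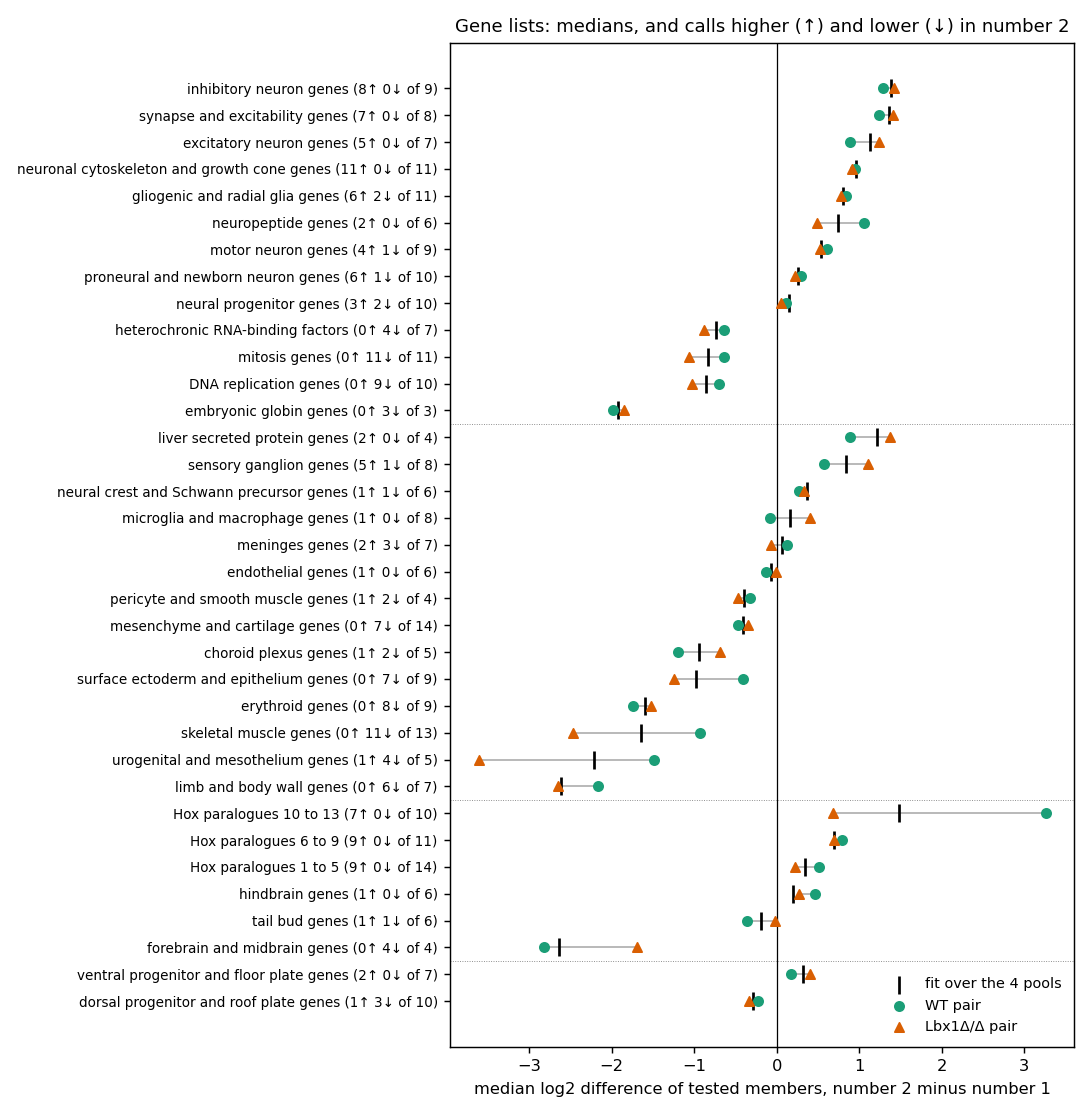
Median log2 difference of the tested members of lists on maturation, tissues, the body axis and the dorsoventral axis with at least 3 tested members, number 2 minus number 1, as a bar for the fit over all pools, a circle for the WT pair and a triangle for the pair labelled Lbx1Δ/Δ, with counts of called members beside each name. Neuronal lists lie to the right of 0 and cell division, embryonic globin, erythroid, muscle and limb lists to the left, and of the lists drawn, which leave out X-inactivation and Y-linked genes, the pairs are farthest apart for Hox paralogue groups 10 to 13, urogenital and skeletal muscle genes.

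Lists of axial level held genes called lower and genes called higher in number 2, against 17.8% called in each direction among all genes tested. Of 15 listed forebrain and midbrain genes 11 did not pass the count filter, and the 4 that did were called lower in number 2. Emx2, of the forebrain and the urogenital ridge, had 518 and 333 against 34 and 6 counts (log2 difference -4.33, SE 0.32, edgeR adjusted p = 1.09e-07). Its antisense neighbour Emx2os had 186 and 144 against 16 and 3 counts, and reads of the pair cannot be told apart. Dlx1 had 146 and 69 against 38 and 23 counts (log2 difference -1.63, SE 0.33, edgeR adjusted p = 0.00101). Dlx2 had 176 and 81 against 36 and 31 counts (log2 difference -1.71, SE 0.32, edgeR adjusted p = 5.10e-04), and both are expressed in branchial arches and limb as well as forebrain. Six3 had 33 and 12 against 0 and 3 counts (log2 difference -3.55, SE 0.92, edgeR adjusted p = 0.00665). With under 10 counts in both number 2 pools, Six3 passed the filter through number 1 alone and was bound to lean lower. Emx2 was under 10 counts in 1 number 2 pool, while Dlx1 and Dlx2 were above 10 in every pool. Hindbrain genes had 1 of 6 tested (8 listed) higher and 0 lower (median 0.19). That gene was Gbx2, at 59.1 and 53.9 against 127 and 114 CPM (log2 difference 1.09, SE 0.09, edgeR adjusted p = 3.40e-07), which the spinal cord also expresses. Of 6 tested of 11 listed tail bud genes 1 was higher and 1 lower. Cyp26a1, the retinoic acid hydroxylase, had 136 and 132 against 22 and 10 counts (log2 difference -2.94, SE 0.38, edgeR adjusted p = 1.90e-05), and the mesoderm factor T had 92 and 49 against 65 and 46 counts (log2 difference -0.16, SE 0.32, edgeR adjusted p = 0.737).

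Many Hox genes were higher in number 2. In paralogue groups 1 to 5, 9 of 14 tested (15 listed) were called higher and 0 lower, with a median of 0.34. In groups 6 to 9, 9 of 11 tested (12 listed) were higher and 0 lower, with a median of 0.69. In groups 10 to 13, 7 of 10 tested (12 listed) were higher and 0 lower, with a median of 1.48. Hoxb5 was at 138 and 177 against 283 and 342 CPM (log2 difference 0.99, SE 0.09, edgeR adjusted p = 4.59e-07). Hoxb8 was at 287 and 360.0 against 673 and 773 CPM (log2 difference 1.16, SE 0.10, edgeR adjusted p = 3.69e-07). Hoxb9 was at 464 and 626 against 801 and 942 CPM (log2 difference 0.69, SE 0.10, edgeR adjusted p = 7.46e-05). Group 10 genes did not overlap between numbers: Hoxc10 was at 70.6 and 75.5 against 156 and 145 CPM (log2 difference 1.04, SE 0.09, edgeR adjusted p = 3.78e-07). Hoxd10 was at 24.0 and 25.5 against 77.2 and 71.8 CPM (log2 difference 1.59, SE 0.13, edgeR adjusted p = 3.15e-07). Hoxa10 had 107 and 121 against 163 and 250 counts (log2 difference 0.97, SE 0.21, edgeR adjusted p = 0.00187). Hoxa11 had 68 and 136 against 329 and 179 counts (log2 difference 1.44, SE 0.35, edgeR adjusted p = 0.00394).

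From group 11 on, the number 1 WT pool had the lowest count of the 4 pools at each tested gene. Hoxc11 had 11 and 82 against 188 and 150 counts (log2 difference 2.22, SE 0.50, edgeR adjusted p = 0.00259). Hoxc12 had 0 and 61 against 183 and 156 counts (log2 difference 2.93, SE 0.68, edgeR adjusted p = 0.00302). Hoxc13 had 10 and 81 against 186 and 114 counts (log2 difference 2.06, SE 0.57, edgeR adjusted p = 0.00963). Hoxd11 had 7 and 59 against 86 and 59 counts, Hoxd12 had 17 and 138 against 141 and 49 counts and Hoxd13 had 8 and 97 against 66 and 25 counts, and these 3 were not called (1.52, 0.66 and 0.29). The antisense RNA Hotair, from the Hoxc cluster, had 3 and 29 against 157 and 49 counts (log2 difference 2.71, SE 0.70, edgeR adjusted p = 0.00654). Without the number 1 WT pool the differences of Hoxc11, Hoxc12 and Hoxc13 were 1.04, 1.47 and 0.89 and did not pass, and without the number 1 pool labelled Lbx1Δ/Δ they were 4.20, 10.50 and 4.16 and did not pass either. The last of these fits sets Hoxc12 against a pool with 0 counts, so its value depends on the count added and is no measure of size. The medians over groups 1 to 5, 6 to 9 and 10 to 13 were 0.51, 0.79 and 3.26 in the WT pair. In the pair labelled Lbx1Δ/Δ they were 0.22, 0.69 and 0.68, so groups 6 to 9 and 10 to 13 lay together there. Without the number 1 WT pool the median over groups 10 to 13 was 0.83. Without this pool the differences in group 10 were 0.98 for Hoxc10 and 1.53 for Hoxd10, and neither passed. Reads of neighbouring, antisense or similar Hox transcripts cannot be told apart further from these counts.

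**Figure D4:**
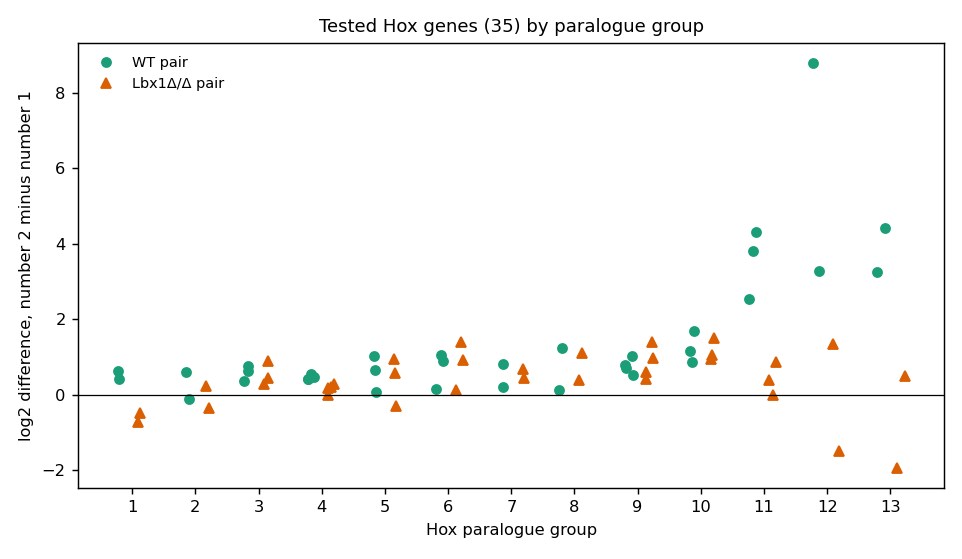
Log2 difference of number 2 minus number 1 for the 35 tested Hox genes by paralogue group, with the WT pair as circles and the pair labelled Lbx1Δ/Δ as triangles. Both pairs lie mostly above 0 in groups 3 to 10, and from group 11 on the WT pair lies above 2 while the other pair lies between -1.93 and 1.35, with the topmost point, Hoxc12, measured against 0 counts.

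Dorsoventral lists had calls in both directions, against 35.6% called of all genes tested. Ventral progenitor and floor plate genes had 2 higher and 0 lower of 7 tested (10 listed), with a median of 0.32, and Shh, the ventral signal, was at 32.8 and 33.3 against 34.1 and 31.2 CPM (log2 difference -0.02, SE 0.14, edgeR adjusted p = 0.949). Dorsal progenitor and roof plate genes had 1 higher and 3 lower of 10 tested (11 listed), with a median of -0.28. Lmx1a, of the roof plate, was lower with 340 and 254 against 107 and 79 counts (log2 difference -1.53, SE 0.20, edgeR adjusted p = 2.39e-05). Rspo1, a Wnt agonist of the roof plate, was lower with 327 and 213 against 90 and 77 counts (log2 difference -1.53, SE 0.21, edgeR adjusted p = 3.38e-05), and so was Msx2 with 1100 and 682 against 441 and 278 counts (log2 difference -1.16, SE 0.15, edgeR adjusted p = 1.59e-05). Zic1, of dorsal progenitors, was the higher gene, at 482 and 464 against 552 and 610.3 CPM (log2 difference 0.30, SE 0.10, edgeR adjusted p = 0.0295). Msx2 is also expressed in limb and skin.

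Lists that bear on tissue handling had calls in both directions and medians near that of all genes tested, of which 35.6% were called. Immediate early and heat shock genes had 1 higher and 2 lower of 9 tested (10 listed), with a median of 0.01. Hypoxia and glycolysis genes had 1 higher and 3 lower of 10 tested (12 listed), with a median of 0.01. Ier2, an early response gene, was at 71.8 and 76.8 against 48.6 and 44.9 CPM (log2 difference -0.67, SE 0.12, edgeR adjusted p = 3.72e-04). Eno1, a glycolytic enzyme, was at 1713 and 1742 against 1329 and 1259 CPM (log2 difference -0.42, SE 0.10, edgeR adjusted p = 0.00392). Genes that mark embryo sex had no shared direction between the numbers, though which of them were present differed. Xist, transcribed from the inactive X, had 2 and 19495 against 15267 and 10253 counts, and the Y-linked Kdm5d and Ddx3y had 2126 and 0 against 432 and 740 counts and 2019 and 0 against 376 and 556 counts. The number 1 WT pool thus held almost no Xist and the number 1 pool labelled Lbx1Δ/Δ no counts of either Y-linked gene, while both number 2 pools held all 3. Of the 3 none passed the test (edgeR adjusted p = 0.246, 0.636 and 0.728), and 1 residual degree of freedom backs each of these values. The number 1 pools lay at opposite ends at all 3, so this test of means could not show a difference in sex make-up. The part of embryo sex in other differences was not tested.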

How the data were processed

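Total RNA of the pools was sequenced on an Illumina HiSeq from NEBNext Ultra libraries, per the labels' protocols. The submitters' processing notes name build mm9, the aligner TopHat2 2.1.1, featureCounts 4.6.0.1 and edgeR 3.4.3. How strand and shared reads were handled is not given in these sources. The authors deposited whole-number counts for each RefSeq transcript without normalization, as the values themselves show. The 41411 accessions were summed to 24971 genes, and 0.325% to 0.649% of counts stayed without a gene symbol. A gene with more than 1 accession may have lost reads in the authors' counting, which makes values of Mcm7, Map2, Slc17a6, Ptprz1, Hoxa10, Hoxd11, Xist and Igf2 uncertain.

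Counts were filtered with filterByExpr by number (minimum count 10, minimum total 15) and fitted in edgeR 4.0.16 (R 4.3.3) with TMM scaling and glmQLFTest on number, with genotype as covariate. The test was two-sided with Benjamini-Hochberg adjustment at 0.05. It was also run on simulated counts in which 200 genes differed between numbers and genotype had no effect. Far more genes were called here, so that run does not speak to how the test behaves on these data. SE is the size of the fitted difference over the square root of F. Differences within a pair are log2 CPM with 0.5 counts added. Alternatives used DESeq2 1.42.0, limma 3.58.1 and other scalings, filters and left-out pools. The members and the 40 lists were chosen with earlier results of these data known, and 5 lists and 9 families were added after values were seen. The genes named are the 12 largest called differences in each direction with average log2 CPM above 4, up to 5 members of each list by p, every tested late Hox, globin, heterochronic and sex-linked gene, and Lbx1. Others, chosen after their values were seen, are Mki67, Mcm7, Ccnd2, Ccnd1, Ccnb1, Sox2, Nes, Vim, Tubb3, Nefm, Neurog2, Neurog1, Gbx1, Chat, Zfhx2, Onecut1, Onecut2, Zfhx3, Zfhx4, Olig2, Sox9, Hepacam, Gja1, Klf1, Sptb, Col1a1, Col3a1, Krt5, Ccno, Deup1, Tcf21, Sim2, Gata6, Sox10, Emx2os, Hotair, Shh, Kcnd2, Cacng2, Grik3, Pcdh18, Pcdh17, Plxna4, Rpl12, Peg3, Igf2, Cldn6, Cldn11 and Gpc3. Some genes the rule picked are not reported here. Promoters came from a RefSeq table on GRCm38.p6.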

Additional observations from a re-analysis of the deposited data

Results flagged for a closer look

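A few genes differed between the numbers in opposite directions under the 2 genotype labels. These contrasts rest on 1 pool per value, and the difference between the labels was not tested. Kdm5d had a log2 difference of -2.03 in the WT pair and 10.54 in the pair labelled Lbx1Δ/Δ, and Ddx3y had -2.15 and 10.12. The positive values are set against 0 counts in the number 1 pool labelled Lbx1Δ/Δ, so they depend on the 0.5 counts added and are no measure of size. The median over Xist and these 2 genes was -2.03 and 10.12. Hoxd12 had 3.29 in the WT pair and -1.48 in the other, and Hoxd13 had 3.24 and -1.93. Both Hoxd genes were lowest in the number 1 WT pool (17 and 8 counts) and highest in the number 1 pool labelled Lbx1Δ/Δ or the number 2 WT pool. Over all genes tested, 35 had differences beyond 1 in opposite directions.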

How the results depend on the processing

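Beside the reported 1914 higher and 1919 lower genes, calls (higher and lower) were made with RLE scaling (1901 and 1904), upper-quartile scaling (2039 and 1895), limma-voom (1972 and 1947), no low-count filter (1944 and 2035), CPM above 1 in 2 libraries (2038 and 1920), no genotype covariate (1429 and 1310), single-accession genes (1777 and 1757) and DESeq2 (1309 and 1294). With a fold minimum of 2 they were 98 and 77. Leaving out a pool gave 1 to 1878 higher and 0 to 2039 lower, the low ends being without a number 1 pool. Of 163 called genes picked by the naming rule, 143 to 163 kept their call under the settings that used all pools and any fold size, 57 with the fold minimum, and 1, 159, 4 and 143 without WT pool 1, WT pool 2, Lbx1Δ/Δ pool 1 and Lbx1Δ/Δ pool 2.

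The median of the neural progenitor list, 0.15 with all pools, ranged from -0.0143 (without WT pool 1) to 0.22 with a pool left out. The cytoskeleton median of 0.96 became 0.86 with no filter, 0.94 with single-accession genes, 0.92 in the Lbx1Δ/Δ pair and 0.87 to 1.04 with a pool left out. The inhibitory neuron median became 1.24 with no filter. With a pool left out the embryonic globin median ranged from -2.08 to -1.75 and the erythroid median from -1.85 to -1.31. The causes were not tested. Fitted with the number as a replicate block, the genotype comparison called 92 genes (29 higher and 63 lower under the Lbx1Δ/Δ label) against 0 without. The labels do not say that the numbers pair the pools, whose deviations from their genotype means had a Pearson r of 0.623 across genes for the same number. Depth limits genes under about 10 counts, and 1 residual degree of freedom limits every p-value.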

Other observations

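Some gene families, chosen by symbol after values were seen, also separated the numbers, where 17.8% of all genes tested were called in each direction. Of 55 tested potassium channel genes (symbols beginning Kcn) 24 were higher in the number 2 pools and 1 was lower (median log2 difference 0.65). The A-type channel subunit Kcnd2 had 371 and 220 against 900 and 846 counts (log2 difference 1.74, SE 0.16, edgeR adjusted p = 5.77e-07). Of 10 tested genes beginning Cacn, for calcium channel and auxiliary subunits, 7 were higher and 1 lower (median 0.996), with Cacng2 at 172 and 214 against 519 and 603 counts (log2 difference 1.68, SE 0.16, edgeR adjusted p = 1.41e-06). Of 9 tested ionotropic glutamate receptor genes 7 were higher and 0 lower (median 1.13), and Grik3 had 1606 and 1303 against 2985 and 3836 counts (log2 difference 1.36, SE 0.10, edgeR adjusted p = 7.89e-08). Protocadherins, adhesion proteins of neurons, were higher at 39 of 61 tested and lower at 1 (median 0.89). That 1 gene was Pcdh18, with 7203 and 5462 against 4094 and 2841 counts (log2 difference -0.74, SE 0.10, edgeR adjusted p = 3.37e-05), and Pcdh17 was higher with 1032 and 890 against 1615 and 1643 counts (log2 difference 0.90, SE 0.10, edgeR adjusted p = 5.07e-06). Semaphorins and plexins, guidance ligands and receptors, were higher at 11 and lower at 2 of 22 tested (median 0.45), with Plxna4 at 2192 and 1971 against 3889 and 3911 counts (log2 difference 1.05, SE 0.08, edgeR adjusted p = 1.67e-07).

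Ribosomal, centromere and imprinted genes that were called were lower. Cytosolic ribosomal protein genes were lower at 51 of 62 tested and higher at 0 (median -0.40), and their summed level was 57840 and 59190 CPM in number 1 against 45350 and 41460 CPM in number 2. Rpl12 had 19959 and 17449 against 11765 and 10466 counts (log2 difference -0.61, SE 0.10, edgeR adjusted p = 2.53e-04), and reads of its processed copies cannot be told apart. Centromere protein genes were lower at 10 of 16 tested and higher at 0 (median -0.61), and histone cluster genes were lower at 9 and higher at 1 of 36 (median -0.72). Imprinted growth genes were lower at 3 of 6 tested and higher at 0 (median -0.65). Among them Peg3 had 12648 and 10126 against 6427 and 5163 counts (log2 difference -0.84, SE 0.10, edgeR adjusted p = 1.07e-05). Igf2 had 3327 and 2641 against 1773 and 1306 counts (log2 difference -0.82, SE 0.10, edgeR adjusted p = 7.41e-06). Claudins, the tight junction proteins of epithelia, were lower at 7 and higher at 2 of 13 tested (median -1.16), with Cldn6 at 411 and 249 against 69 and 47 counts (log2 difference -2.35, SE 0.21, edgeR adjusted p = 6.08e-07). Cldn11, of meninges and oligodendrocytes, was higher with 434 and 440 against 630 and 777 counts (log2 difference 0.82, SE 0.14, edgeR adjusted p = 3.33e-04). Among all genes tested 17.8% were higher and 17.8% lower.

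Outside the lists, Fndc3c1 had 3060 and 2374 against 841 and 470 counts (log2 difference -1.95, SE 0.13, edgeR adjusted p = 6.70e-08). Klhl41, a sarcomere protein, had 859 and 540 against 296 and 95 counts (log2 difference -1.82, SE 0.22, edgeR adjusted p = 1.15e-05). Gpc3, a heparan sulphate proteoglycan of mesoderm, was at 1393 and 1115 against 716 and 419 CPM (log2 difference -1.19, SE 0.12, edgeR adjusted p = 1.40e-06). All 3 were lower in both number 2 pools.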
